A study of Mus musculus with 8 samples.

Results

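The MHC class I and peptide loading genes were followed here in CD11b+Gr-1+ myeloid cells, a mouse population of immature granulocytic and monocytic cells also called myeloid-derived suppressor cells. The members were 10 named genes, and every array probe set annotated to a single gene, that gene being a member, was taken whatever its values. This gave 26 of the 45101 probe sets on the array for 9 of the 10 genes. H2-T23 had no probe set of its own, and its values come only from probe sets that it shares with H2-T-ps. H2-D1 had 9 probe sets, H2-K1 and Tap1 had 4 each, B2m, Tapbp and Psmb8 had 2 each, and H2-Q10, Tap2 and Psmb9 had 1 each.

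RNA was measured in 4 groups on 8 Affymetrix arrays. The wild-type bone marrow group came from HDC-EGFP mice, which carry a green fluorescent reporter for histidine decarboxylase (Hdc), the enzyme that makes histamine, and the HDC-KO bone marrow group came from HDC-EGFP/HDC-KO mice, in which Hdc is also knocked out. Each marrow group used 3 mice of 3 to 4 months, and the cells were those that expressed the reporter. The tumor groups used 5 mice of 7 months each, labelled HDC-EGFP or HDC-EGFP/HDC-KO, although the protocol names the latter mice only as HDC-KO, and cells from 10 to 12 colon tumors per group were pooled. The tumors had been induced with a single dose of azoxymethane (AOM), a carcinogen, then 10 days of dextran sodium sulfate (DSS), which injures the colon, and were taken 22 to 24 weeks later. All 8 labels give the strain C57BL/6J. No group is free of the reporter, and reporter expression is given as a sorting criterion for marrow only, so tissue also stands for age, carcinogen and sort.

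MHC class I molecules show peptides from inside the cell to CD8 T cells and to receptors of natural killer cells. A polymorphic heavy chain pairs with beta-2 microglobulin. The peptides are cut by the proteasome, which can exchange catalytic subunits for interferon-inducible ones, carried into the endoplasmic reticulum by the Tap1 and Tap2 transporter, and loaded with the help of tapasin. In myeloid cells the pathway is present at rest and is raised by interferons, with Nlrc5 as the transactivator of class I promoters. Heavy chain sequences differ between mouse strains and are closely alike between genes.

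Each group was measured on 2 arrays that the labels call technical replicates, so each group stands for 1 RNA sample, called a pool here. Pooling is stated in the labels only of cells from tumors, and whether marrow RNA was pooled over the 3 mice was not stated there. Adjusted p-values from limma with Benjamini-Hochberg adjustment over 15686 tested probe sets therefore set pool differences against the spread of technical arrays and not of mice. Correlations between the paired arrays of each pool ran from 0.9953 to 0.9978. Values are log2 array signal, log2 5 was taken as background, and a probe set was called where the adjusted p was under 0.05 and the log2 difference at least 1, which is 2-fold. Of the 26 member probe sets, 21 passed the filter of 2 arrays at or above log2 5, and 15 had all 4 pool means at or above it. Signal depends on the probe set, so levels are compared between pools and not between genes. In bulk RNA, fewer cells of a type and less RNA per cell cannot be told apart.

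Hdc, the targeted gene, checked the labels. Its 2 probe sets were lower in HDC-KO than in wild-type marrow by log2 differences of -4.60 (adjusted p = 1.9e-05, limma) and -3.35 (adjusted p = 1.3e-06, limma). In the pool labelled HDC-KO tumor they differed from wild-type tumor by -0.20 (adjusted p = 0.3, limma) and -0.21 (adjusted p = 0.017, limma), so this label was not borne out by Hdc. Granulocyte markers were at or above background for 10 of 10 genes in every pool. Markers of monocytes, macrophages and dendritic cells reached it for 7 of 15 genes in each marrow pool, 14 in wild-type tumor and 15 in the tumor pool labelled HDC-KO. Their summed linear signal was 2947 to 3032, 3681 to 3688, 20721 to 21403 and 55217 to 55786 in the same order over the 2 arrays of each pool, with wild-type marrow first. Colon epithelium markers reached background for 1 of 15 genes in each marrow pool, 11 in wild-type tumor and 14 in the tumor pool labelled HDC-KO, at summed signals of 221 to 267, 242 to 260, 5231 to 5252 and 26214 to 27938. The defining markers Epcam, Cdh1 and Krt8 were below background in both marrow pools, Mertk, C1qa and Cx3cr1 likewise, and all 10 fibroblast and endothelium markers were below it in every pool. B and plasma cell markers reached background for 4 of 7 genes in wild-type marrow and 5 in each other pool, with summed signals of 4405 to 4531, 1103 to 1122, 27167 to 27656 and 42877 to 43376. T and NK cell markers reached it for 2 of 9 genes in each marrow pool, 3 in wild-type tumor and 4 in the tumor pool labelled HDC-KO, with summed signals of 778 to 1067, 6037 to 6137, 4386 to 4612 and 3268 to 3272, and Cd3e, Cd4 and Cd8a were below background in every pool. The 2 T and NK cell markers above background in HDC-KO marrow were Cd3d, at 12.49 and 12.46, and Nkg7, at 8.31 and 8.32. Since class I genes are active in nearly all nucleated cells, these values stand beside every comparison, and the part of such cells in the class I signal was not tested.

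H2-K1, a classical heavy chain that presents peptides to CD8 T cells, was lower in HDC-KO than in wild-type marrow and higher in the pool labelled HDC-KO tumor than in wild-type tumor on all 4 of its probe sets. All 4 are of the cross-hybridising _x_at kind, so their signal may not come from H2-K1 alone. On 1425336_x_at the arrays read 12.23 and 12.24 in wild-type marrow, 11.17 and 11.25 in HDC-KO marrow, 11.47 and 11.59 in wild-type tumor, and 12.52 and 12.52 in the pool labelled HDC-KO tumor. Wild-type marrow and the pool labelled HDC-KO tumor were thus high, the other 2 pools were low, and no arrays of different pools overlapped. The genotype difference was -1.02 ± 0.064 in marrow (limma standard error, adjusted p = 0.0002), 2.03-fold lower, and 0.99 ± 0.064 in tumor (limma adjusted p = 3e-05), 1.99-fold higher and just under the 2-fold threshold. Probe set 1427746_x_at read 11.3 and 11.18, 10.19 and 10.24, 10.74 and 10.78, and 11.9 and 11.84 over the pools in that order. It passed in both tissues, at -1.03 ± 0.065 (limma adjusted p = 0.00021) and 1.10 ± 0.065 (limma adjusted p = 2.2e-05). The marrow calls rest on single arrays, since leaving out the first HDC-KO marrow array gave -0.98 for 1425336_x_at and leaving out the first wild-type marrow array gave -0.96 for 1427746_x_at, while without the second wild-type tumor array 1425336_x_at passed in tumor at 1.05.

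The other 2 H2-K1 probe sets differed in how far they moved. The brightest, 1451931_x_at, read 13.36 and 13.31, 12.88 and 12.86, 12.7 and 12.71, and 13.16 and 13.08, so that wild-type marrow was the highest pool and wild-type tumor the lowest. Its genotype differences of -0.46 in marrow and 0.42 in tumor stayed under 2-fold (limma adjusted p = 0.003 and 0.00077). The dimmest, 1450534_x_at, read 5.17 and 4.81 in wild-type marrow, 4.37 and 4.2 in HDC-KO marrow, 4.61 and 4.75 in wild-type tumor, and 6.0 and 5.89 in the pool labelled HDC-KO tumor. Only the last pool was clearly above background, at least 1.93-fold over wild-type tumor, and that call fell to a difference of 0.95 once values under log2 5 were raised to 5. In wild-type cells the tumor pool was below the marrow pool on all 4 probe sets, by -0.31 to -0.71, and none passed. In the cells labelled HDC-KO all 4 were higher in tumor than in marrow, by 0.25 to 1.66, and 3 of them were called, among them 1427746_x_at at 3.15-fold. The call of 1450534_x_at, the probe set near background, fell to 0.95 with values raised to log2 5.

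**Figure D1:**
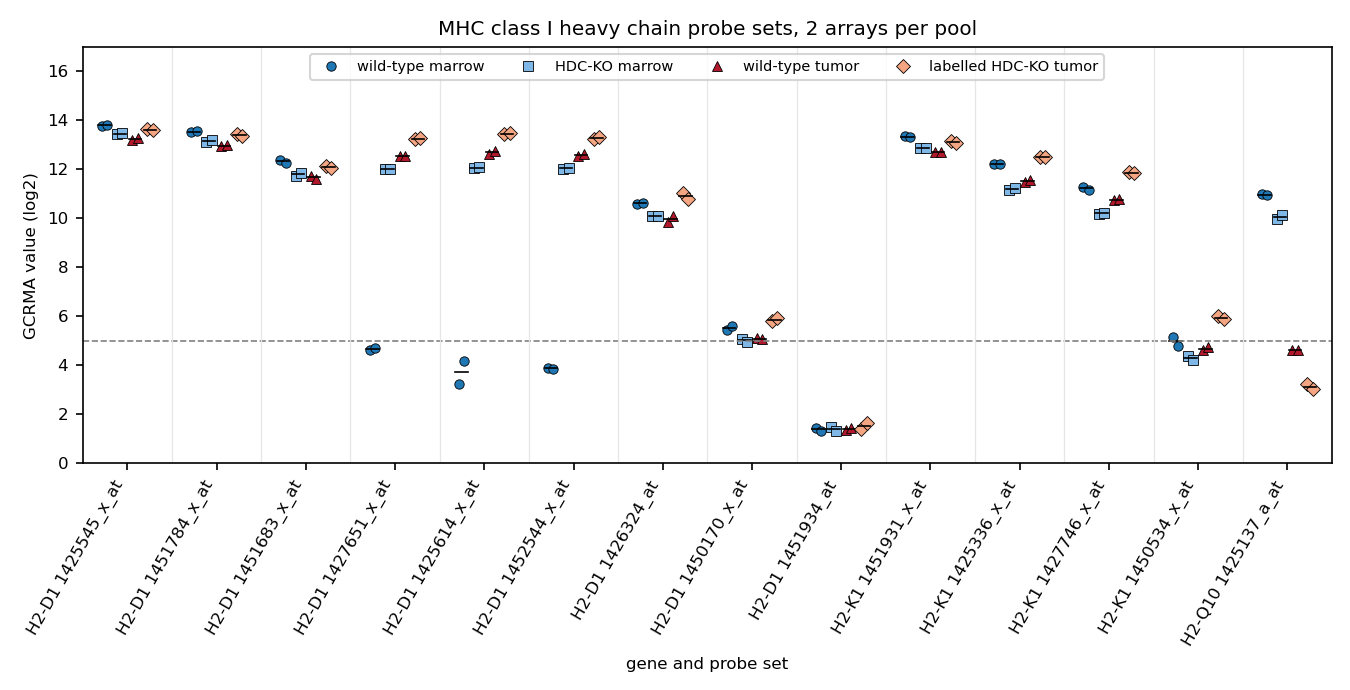
Log2 array signal of every probe set of H2-K1, H2-D1 and H2-Q10 on the 8 arrays, with colours for the 4 pools and a line at log2 5, taken as background. Each point is 1 technical array. The untested H2-D1 probe set 1451934_at lies below the line on every array. H2-K1 is lowest in HDC-KO marrow or wild-type tumor on every probe set, 3 H2-D1 probe sets fall below log2 5 in wild-type marrow alone, and H2-Q10 is above background only in the marrow pools.

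H2-D1, the other classical heavy chain of this strain, had 9 probe sets that fell into different patterns. One, 1451934_at, read 1.33 to 1.65 on the 8 arrays and was not tested. Of the 8 tested, 5 followed the same order of signs as H2-K1. Among these, 1425545_x_at read 13.79 and 13.8 in wild-type marrow, 13.44 and 13.47 in HDC-KO marrow, 13.21 and 13.27 in wild-type tumor, and 13.64 and 13.61 in the pool labelled HDC-KO tumor. Probe set 1426324_at, which is not of the cross-hybridising _x_at kind, read 10.61 and 10.63, 10.09 and 10.11, 9.87 and 10.11, and 11.04 and 10.8. Probe set 1451784_x_at read 13.52 and 13.57, 13.14 and 13.21, 12.97 and 12.98, and 13.43 and 13.36, and 1451683_x_at read 12.4 and 12.28, 11.75 and 11.87, 11.74 and 11.63, and 12.13 and 12.06. On these, as on 1425545_x_at, wild-type marrow was the highest pool and wild-type tumor the lowest. The dim probe set 1450170_x_at read 5.44 and 5.59, 5.08 and 4.97, 5.11 and 5.07, and 5.8 and 5.93, near background in the 2 low pools. For these 5 the genotype difference ran from -0.53 to -0.34 in marrow and from 0.38 to 0.92 in tumor. The largest adjusted p was 0.02 in marrow and 0.0037 in tumor by limma, and none reached 2-fold in either tissue. The tumor difference of 1426324_at rose to 1.04 when the second wild-type tumor array, or the second array of the pool labelled HDC-KO tumor, was left out.

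The 3 remaining H2-D1 probe sets were below background in wild-type marrow and bright everywhere else. Probe set 1427651_x_at read 4.61 and 4.7 in wild-type marrow, 12.03 and 12.02 in HDC-KO marrow, 12.56 and 12.56 in wild-type tumor, and 13.24 and 13.28 in the pool labelled HDC-KO tumor. Probe set 1425614_x_at read 3.26 and 4.19, 12.06 and 12.08, 12.64 and 12.75, and 13.43 and 13.47 over the pools in that order. Probe set 1452544_x_at read 3.9 and 3.86, 12.03 and 12.05, 12.53 and 12.63, and 13.25 and 13.32. In all 3, wild-type marrow stood far below the other pools and the remaining order was HDC-KO marrow, wild-type tumor, and the pool labelled HDC-KO tumor. HDC-KO marrow was at least 130-fold, 134-fold and 132-fold above wild-type marrow on them (largest limma adjusted p = 1.4e-05). Wild-type tumor was at least 189-fold, 208-fold and 191-fold above wild-type marrow (largest limma adjusted p = 1.9e-06). In tumor, the pool labelled HDC-KO was 0.70 to 0.75 higher on these 3, close to the 0.38 to 0.92 of the other H2-D1 probe sets in the same comparison. In marrow, by contrast, HDC-KO read far above wild-type on these 3 probe sets and below it, by under 2-fold, on the other 5. What the probes of each set match was not tested, as probe sequences were not used here.

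The promoters of H2-K1, H2-D1 and H2-Q10 are shown because class I promoters carry elements known to answer NF-kappa B and interferon, and the array patterns of these genes differ. All lines are from RefSeq windows of build GRCm38.p6, in the direction of each gene: H2-K1 at chr17:34000341-34000482 on the minus strand, H2-D1 at chr17:35262899-35263040 on the plus strand and H2-Q10 at chr17:35469889-35470030 on the plus strand, all upstream of the annotated start. Capitals mark GGGNNTTCC, GAANNGAAA (here on the opposite strand) and TGACG, and N is any base.
H2-K1: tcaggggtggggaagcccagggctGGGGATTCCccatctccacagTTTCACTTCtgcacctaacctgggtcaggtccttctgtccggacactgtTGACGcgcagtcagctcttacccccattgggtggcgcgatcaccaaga
H2-D1: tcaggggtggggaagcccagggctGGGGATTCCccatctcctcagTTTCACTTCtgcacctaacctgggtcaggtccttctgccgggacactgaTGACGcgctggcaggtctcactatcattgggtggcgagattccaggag
H2-Q10: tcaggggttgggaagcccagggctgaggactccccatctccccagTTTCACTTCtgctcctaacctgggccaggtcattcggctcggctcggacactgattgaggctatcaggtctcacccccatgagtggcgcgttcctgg
H2-K1 and H2-D1 were identical at 88.8% of aligned positions over these stretches, and H2-Q10 at 81.1% with each. H2-K1 and H2-D1 hold all 3 motifs in the same order, and H2-Q10 holds GAANNGAAA alone. On either strand, 5.82% of all 32851 RefSeq windows of 300 bases hold GGGNNTTCC, 7.52% hold GAANNGAAA and 20.8% hold TGACG. GAANNGAAA was chosen after these sequences were seen. A match is a description of letters and not of binding.

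H2-Q10, which encodes a secreted class I protein known mainly from the liver, was above background only in marrow. Probe set 1425137_a_at read 10.98 and 10.94 in wild-type marrow, 9.97 and 10.16 in HDC-KO marrow, 4.62 and 4.61 in wild-type tumor, and 3.25 and 3.02 in the pool labelled HDC-KO tumor. Marrow and tumor did not overlap in either genotype. Wild-type tumor was at least 62.4-fold below wild-type marrow (limma adjusted p = 1.7e-07), and the pool labelled HDC-KO tumor at least 33.5-fold below HDC-KO marrow (limma adjusted p = 5.9e-08). HDC-KO marrow was lower than wild-type marrow by -0.90 ± 0.10 (limma adjusted p = 0.002), 1.86-fold and under the threshold. The tumor genotype difference of -1.48 passed the test, but both pools lay below background, so no fold is given. H2-Q10 thus fell from marrow to tumor, where the H2-K1 and tested H2-D1 probe sets lay within 2-fold or rose.

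H2-T23 encodes Qa-1, a nonclassical class I molecule that presents leader peptides of other class I chains to natural killer receptors. Its shared probe set 1449556_at, annotated to H2-T-ps as well, read 12.52 and 12.53 in wild-type marrow, 12.42 and 12.34 in HDC-KO marrow, 12.12 and 12.11 in wild-type tumor, and 12.84 and 12.94 in the pool labelled HDC-KO tumor. The tumor genotype difference was 0.78 (limma adjusted p = 6.5e-05) and the marrow difference -0.14 (limma adjusted p = 0.16). The other shared probe set, 1419658_at, stayed at 2.62 to 3.38, below background. These values cannot be given to either gene.

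B2m, the light chain of every class I molecule, varied least among the members that were bright in all pools. Probe set 1449289_a_at read 13.9 and 13.9 in wild-type marrow, 13.73 and 13.76 in HDC-KO marrow, 13.76 and 13.72 in wild-type tumor, and 14.12 and 13.95 in the pool labelled HDC-KO tumor. Its marrow genotype difference of -0.16 ± 0.069 did not pass (limma adjusted p = 0.17), and its tumor difference was 0.29 ± 0.069 (limma adjusted p = 0.009). Probe set 1452428_a_at read 13.48 and 13.48, 13.3 and 13.21, 13.19 and 13.22, and 13.65 and 13.72, with genotype differences of -0.23 (limma adjusted p = 0.043) and 0.49 (limma adjusted p = 0.00048). The signs were those of H2-K1, at smaller sizes.

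The B2m promoter is printed because it holds an interferon-response type motif in another spelling than the heavy chain windows above. The 125 bases at chr2:122147523-122147647 of GRCm38.p6, plus strand, upstream of the start, have GAAANNGAA, TGACG and CCAAT (on either strand) in capitals.
B2m: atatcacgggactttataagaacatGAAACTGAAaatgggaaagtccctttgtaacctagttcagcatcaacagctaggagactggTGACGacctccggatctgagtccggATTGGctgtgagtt
GAAANNGAA is held by 8.56% of all RefSeq windows, and by 2 of the 9 member windows, those of B2m and H2-T23. CCAAT is held by 37.4% of all windows and by 7 of the 9 members. TTCNNNGAA, a STAT-type spelling, is held by 8.3% of all windows and by 1 member, Psmb8.

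Tap1, the transporter subunit that shares a promoter with Psmb9, had the largest marrow genotype difference among the member probe sets at or above background in all 4 pools. Probe set 1416016_at read 8.81 and 8.91 in wild-type marrow, 7.64 and 7.47 in HDC-KO marrow, 8.29 and 8.22 in wild-type tumor, and 9.23 and 9.37 in the pool labelled HDC-KO tumor. The 4 pools did not overlap, and HDC-KO marrow was the lowest. Tap1 was 2.47-fold lower in HDC-KO marrow (-1.31 ± 0.088, limma adjusted p = 0.00026) and 2.06-fold higher in the pool labelled HDC-KO tumor (1.04 ± 0.088, limma adjusted p = 9.3e-05). The tumor call was lost, at 0.97, without the second array of the pool labelled HDC-KO tumor. Between tissues it rose 3.36-fold in the cells labelled HDC-KO, and in wild-type cells the tumor pool was lower by -0.60. The 3 other Tap1 probe sets read 1.88 to 2.75 on every array.

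Tap2, the other transporter subunit, was set apart by tissue. Probe set 1453913_a_at read 7.74 and 7.65 in wild-type marrow, 7.31 and 7.4 in HDC-KO marrow, 5.97 and 6.04 in wild-type tumor, and 6.86 and 6.71 in the pool labelled HDC-KO tumor. Both marrow pools were above both tumor pools. In wild-type cells it fell 3.22-fold from marrow to tumor (-1.69 ± 0.077, limma adjusted p = 1.1e-05), and in the cells labelled HDC-KO the difference was -0.57. The genotype differences were -0.34 in marrow (limma adjusted p = 0.027) and 0.77 in tumor (limma adjusted p = 0.00019).

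Tapbp encodes tapasin, which bridges the transporter to empty class I molecules. Probe set 1421812_at read 11.45 and 11.43 in wild-type marrow, 11.17 and 11.21 in HDC-KO marrow, 11.15 and 11.19 in wild-type tumor, and 11.89 and 11.98 in the pool labelled HDC-KO tumor. HDC-KO marrow and wild-type tumor overlapped, and the pool labelled HDC-KO tumor stood above all others. The genotype differences of -0.25 (limma adjusted p = 0.031) and 0.76 (limma adjusted p = 6e-05) were under 2-fold. The second Tapbp probe set, 1450378_at, read 4.2 to 4.83 and was not tested.

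Psmb8 and Psmb9 encode catalytic subunits of the immunoproteasome. Psmb8 on 1422962_a_at read 10.57 and 10.59 in wild-type marrow, 10.19 and 10.3 in HDC-KO marrow, 10.29 and 10.44 in wild-type tumor, and 11.46 and 11.43 in the pool labelled HDC-KO tumor. It rose 2.12-fold in the pool labelled HDC-KO tumor over wild-type tumor (1.08 ± 0.073, limma adjusted p = 3.6e-05), and its marrow difference was -0.34 ± 0.073 (limma adjusted p = 0.023). Its dimmer probe set 1444619_x_at read 4.8 and 4.83, 4.4 and 4.36, 4.56 and 4.59, and 5.45 and 5.51, so that only the pool labelled HDC-KO tumor was above background. That pool was at least 1.39-fold over each of the others. Psmb9 on 1450696_at read 10.82 and 10.75, 10.51 and 10.44, 10.61 and 10.64, and 11.0 and 11.06, and none of its differences reached 2-fold. Its genotype differences were -0.31 (limma adjusted p = 0.015) and 0.40 (limma adjusted p = 0.0011).

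Psmb9, Tap1, Psmb8 and Tap2 are neighbours in this order on chromosome 17 in RefSeq, and Psmb9 and Tap1 are read away from each other from starts 225 bases apart. The sequence between those starts, chr17:34187331-34187555 of GRCm38.p6 on the strand of Tap1, is printed because the neighbours differed in size of response. CCAAT and TGACG are in capitals.
Psmb9 to Tap1: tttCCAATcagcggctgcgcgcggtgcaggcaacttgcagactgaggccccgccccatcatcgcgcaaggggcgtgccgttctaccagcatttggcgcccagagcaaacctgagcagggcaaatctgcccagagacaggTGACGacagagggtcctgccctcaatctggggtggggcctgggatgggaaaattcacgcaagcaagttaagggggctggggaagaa
TGACG stood in 5 of the 9 member windows, those of H2-D1, H2-K1, B2m, Tap1 and Psmb9. Across this shared stretch, Tap1 was lower in HDC-KO marrow by -1.31 and Psmb9 by -0.31, and higher in the pool labelled HDC-KO tumor by 1.04 and 0.40.

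**Figure D2:**
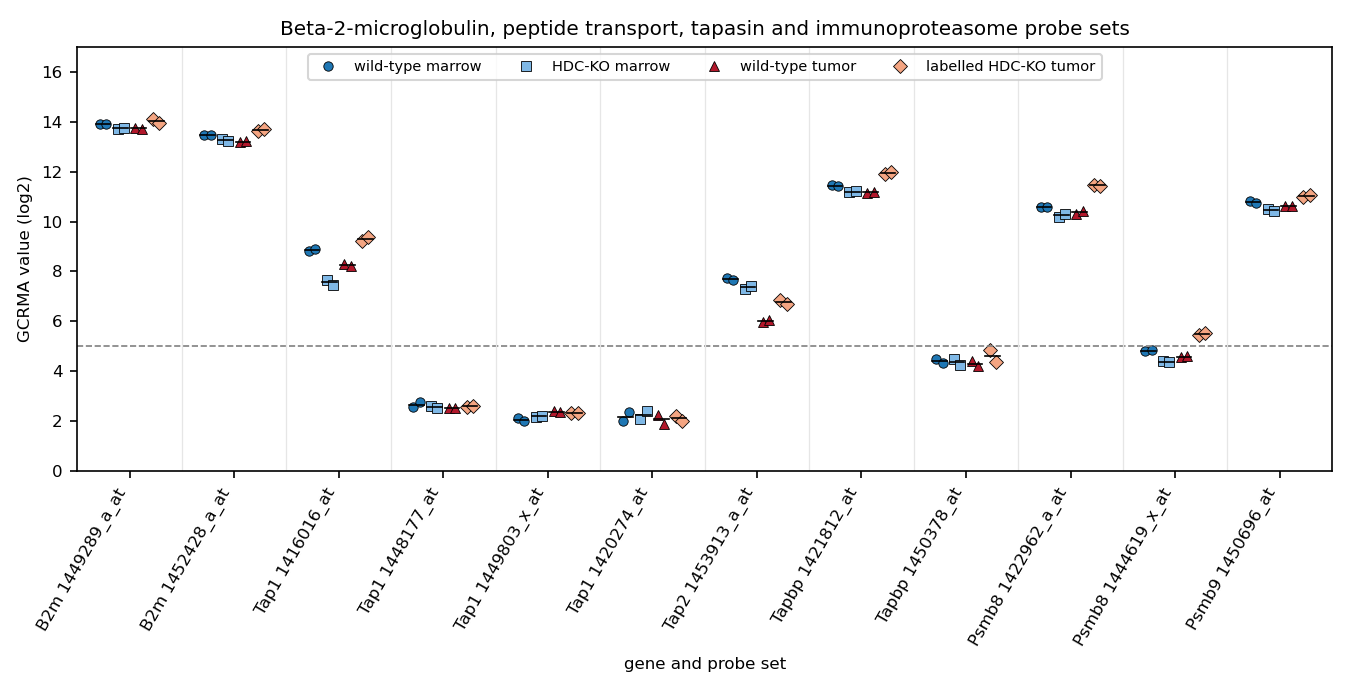
Log2 array signal of every probe set of B2m, Tap1, Tap2, Tapbp, Psmb8 and Psmb9 on the 8 arrays, with colours for the 4 pools and a line at log2 5. Each point is 1 technical array. Tap1 1416016_at spreads from 7.47 to 9.37 and Tap2 separates marrow from tumor, while the B2m arrays lie within 13.72 to 14.12 on its brighter probe set. The untested Tap1 and Tapbp probe sets lie below the line on every array.

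Counts over the members place these values against the rest of the array. Comparing HDC-KO with wild-type marrow, 6 of the 21 tested member probe sets were called, 3 higher and 3 lower. Over all 15686 tested probe sets 4.14% were called, 1.7% higher and 2.44% lower. The 3 higher were the H2-D1 probe sets below background in wild-type marrow, and the 3 lower were 2 of H2-K1 and that of Tap1. In tumor, 5 members were called, 4 higher (2 of H2-K1, Tap1 and Psmb8) and 1 lower (H2-Q10), beside a background of 24.1%, with 13.2% higher and 10.9% lower. The members' share of 5 in 21 was near that background. Between tissues in wild-type cells 5 were called, 3 higher and 2 lower, beside 16.7%, with 9.93% higher and 6.76% lower, and in the cells labelled HDC-KO 10 were called, 9 higher and 1 lower, beside 36.4%, with 18.2% in each direction. Of those 9, H2-K1 1450534_x_at fell to 0.95 and Psmb8 1444619_x_at to 0.48 with values raised to log2 5. Among the 15 probe sets at or above log2 5 in all pools, 4 were called in that comparison, all higher.

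Most member differences were under 2-fold. On the limma adjusted p alone, with no minimum size, 3 of the 21 tested member probe sets were higher and 17 lower in HDC-KO marrow, with differences of -1.31 to 8.34. On that rule 20.4% of all tested probe sets passed in marrow, 9.92% higher and 10.5% lower. In tumor 20 members were higher and 1, H2-Q10, lower, at -1.48 to 1.26, where 69.5% of all tested passed, 34.6% higher and 34.9% lower. Between tissues in wild-type cells 3 were higher and 15 lower in tumor, where 56.4% of all tested passed, 24.1% higher and 32.3% lower. In the cells labelled HDC-KO 19 were higher and 2, H2-Q10 and Tap2, lower in tumor, where 79.5% passed, 35.1% higher and 44.4% lower. The medians over the 21 were -0.37, 0.75, -0.42 and 0.82 in these 4 comparisons, beside medians of 0.00, -0.01, -0.07 and -0.12 over all tested probe sets. The other 5 member probe sets were too dim to test. Heavy chains are alike in sequence and the comparisons share pools, so these counts are not independent of one another.

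**Figure D3:**
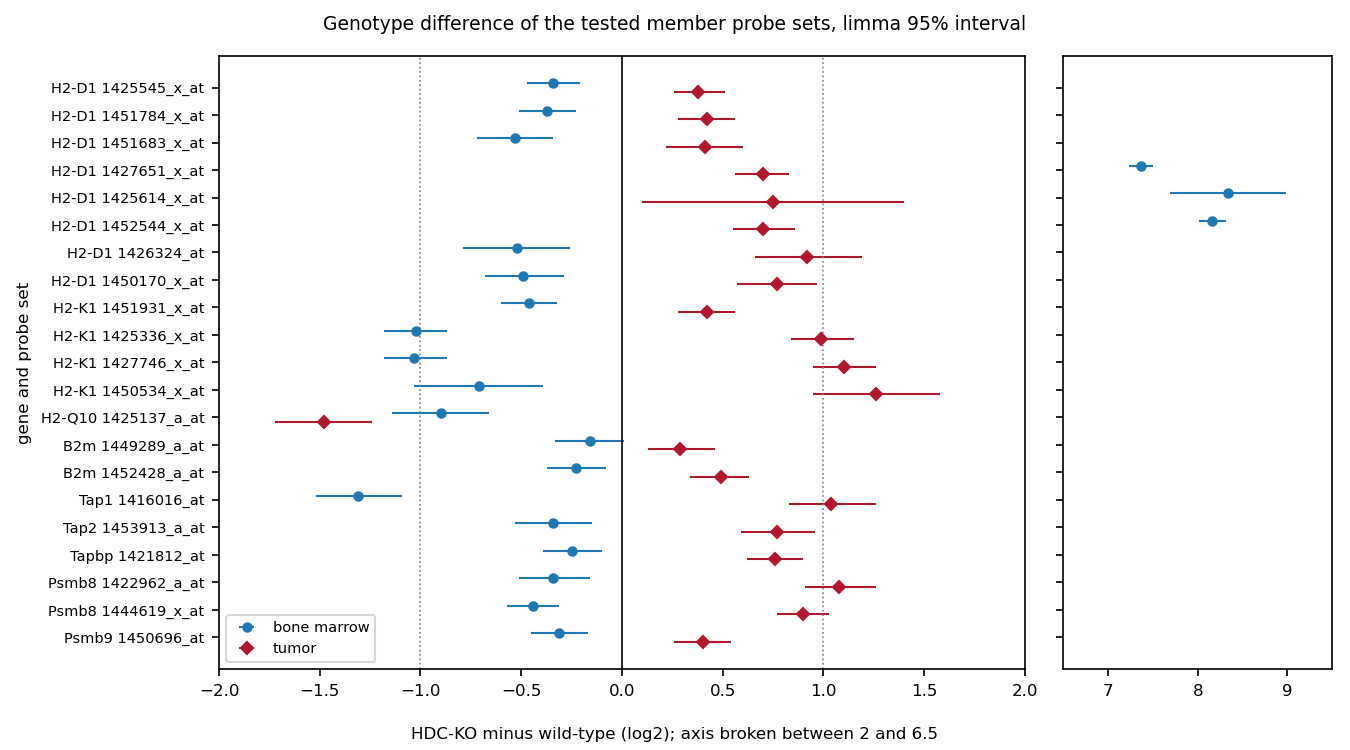
Log2 difference of HDC-KO minus wild-type for each tested member probe set in marrow and in tumor. The 95% intervals from limma cover the spread of technical arrays only, and dotted lines mark the 2-fold threshold. Outside the 3 H2-D1 probe sets at 7.37 to 8.34 in marrow, the marrow differences lie below 0, and the tumor differences lie above 0 except for H2-Q10.

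In the order of the pools, 15 of the 21 tested member probe sets were highest in the pool labelled HDC-KO tumor and 6 in wild-type marrow. The lowest pool was wild-type tumor for 9, HDC-KO marrow for 8, wild-type marrow for 3, all of H2-D1, and the pool labelled HDC-KO tumor for 1, H2-Q10. Of 63 pairs of neighbouring pools in the orders of the 21 tested probe sets, 14 did not differ at a limma adjusted p of 0.05. In 9 of these 14 the pair was HDC-KO marrow and wild-type tumor, as for Tapbp, Psmb9 and both B2m probe sets. On B2m 1449289_a_at no neighbouring pools differed on that rule.

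The genotype difference itself was compared between tissues with an interaction term. By limma 13 of the 21 members were called, 10 with a higher difference in tumor and 3 with a lower one, beside 27.4% of all tested probe sets, 15.1% higher and 12.3% lower. The 3 lower were the H2-D1 probe sets near background in wild-type marrow, at -7.59 to -6.67. Among the others Tap1 stood at 2.35 ± 0.12 (limma adjusted p = 2.5e-05), H2-K1 1427746_x_at at 2.13 ± 0.092 (limma adjusted p = 1.3e-05) and H2-K1 1425336_x_at at 2.02 ± 0.091 (limma adjusted p = 1.4e-05). Psmb8 1422962_a_at stood at 1.42, Tap2 at 1.11 and Tapbp at 1.01. Tapbp lost its call when single arrays were left out, falling to 0.96 without the second array of the pool labelled HDC-KO tumor, and Tap2 lost its call, also at 0.96, under quantile normalization. B2m, at 0.45 and 0.71, and Psmb9, at 0.71, did not reach the 2-fold threshold. On the adjusted p alone 17 of the 21 had a higher and 4 a lower genotype difference in tumor, at -7.59 to 2.35, beside 62.7% of all tested that passed, 31.5% higher and 31.2% lower. Since the Hdc label of 1 tumor pool was not borne out, the term compares labelled pools.

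The genes whose 4 pool means were most like each member's, after centring, were found by root mean square difference over 4 pools among 13478 probe sets of other genes. For all 3 H2-D1 probe sets that were at background in wild-type marrow the closest was Gbp2b, which encodes an interferon-inducible guanylate-binding protein, at 0.47 for 1427651_x_at, 0.71 for 1425614_x_at and 0.66 for 1452544_x_at. Gbp2b read 1.2 and 1.99 in wild-type marrow, 8.05 and 7.84 in HDC-KO marrow, 9.27 and 9.41 in wild-type tumor, and 10.41 and 10.47 in the pool labelled HDC-KO tumor. The next gene, Dsp, which encodes the junction protein desmoplakin, was at 1.2 to 1.7 from them. Trim12a and Trim30d, of the tripartite-motif family, went the other way and were chosen after their values were seen. Trim12a read 10.81 and 10.75 in wild-type marrow and 1.94 to 2.46 on the other 6 arrays. Trim30d read 11.11 and 11.23 in wild-type marrow, 2.38 and 2.77 in HDC-KO marrow, and 4.65 to 7.07 in the tumor pools. All labels give 1 strain, and whether the wild-type marrow mice differed from the others in strain background was not tested. Every comparison with the wild-type marrow pool carries that limit.

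**Figure D4:**
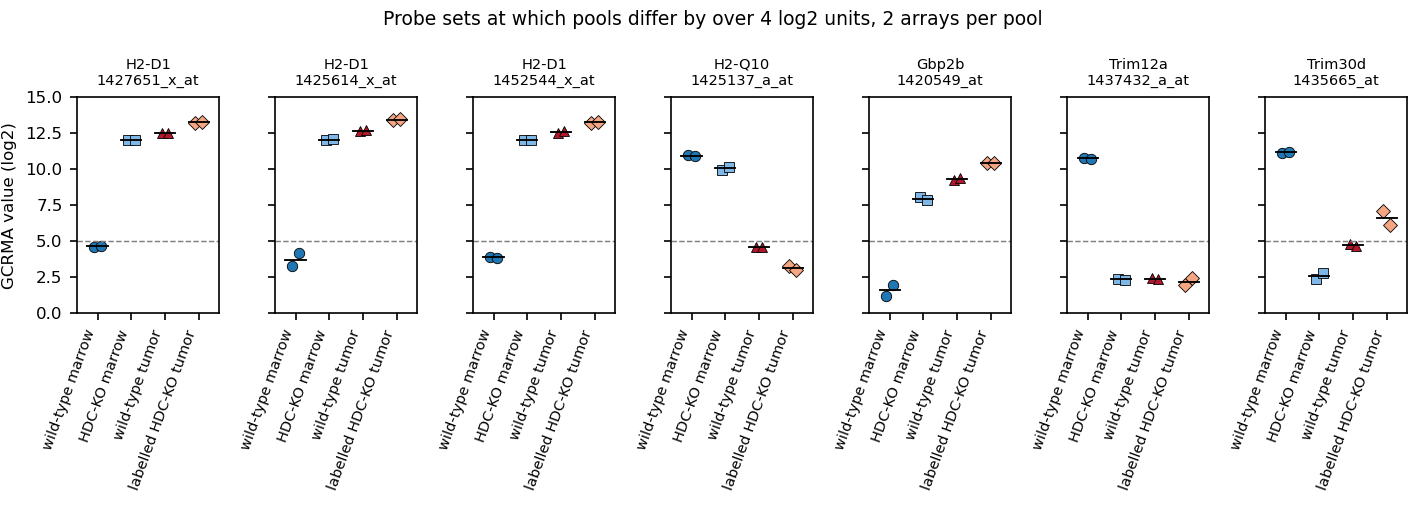
Log2 array signal on the 8 arrays of the 3 H2-D1 probe sets, H2-Q10, Gbp2b, Trim12a and Trim30d, with a line at log2 5. Each point is 1 technical array. In wild-type marrow the H2-D1 probe sets and Gbp2b lie below the line and Trim12a and Trim30d near log2 11. The HDC-KO marrow pool lies on the opposite side of the line for each of these. H2-Q10 lies above the line in both marrow pools and below it in both tumor pools.

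For the other members the closest gene is given for each probe set by the same measure. The 5 other H2-D1 probe sets were closest to Ackr4 (1425545_x_at, 0.02), Brwd1 (1451784_x_at, 0.027), Gm5817 (1451683_x_at, 0.03), Cfap20 (1426324_at, 0.037) and 2310039H08Rik (1450170_x_at, 0.028). The 4 H2-K1 probe sets were closest to Reep5 (1451931_x_at, 0.016), Serhl (1425336_x_at, 0.093), Kcnn4 (1427746_x_at, 0.051) and Fam98c (1450534_x_at, 0.064). B2m was closest to AI413582 at 0.0092 and Rexo4 at 0.018, Tap1 to Mylip at 0.075, Tap2 to Eif2ak2, the interferon-induced kinase PKR, at 0.071 and Tapbp to Rapgef1 at 0.027. Psmb8 was closest to Eef2, a translation elongation factor gene, at 0.046 and Rnf187 at 0.022, and Psmb9 to Ifit2, an interferon-induced gene, at 0.0063. H2-Q10 was closest to Foxd4 at 0.54. These distances rest on 4 pools and carry no test.

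Other genes of the pathway were read from lists, 1 probe set a gene. Beside their counts stand the shares called over all tested probe sets. By genotype these were 1.7% higher and 2.44% lower in marrow, and 13.2% higher and 10.9% lower in tumor. Of 22 other class I and class I-like heavy chain genes, 10 had a probe set and 5 were tested. In tumor 4 of the 5 were higher in the pool labelled HDC-KO, and in marrow 1 was lower. Fcgrt, the neonatal Fc receptor heavy chain, was 11.6-fold higher in tumor, H2-M3, which presents formylated peptides, 7.21-fold, Hfe, a regulator of iron uptake, 7.19-fold, and Cd1d1, which presents lipids, 3.22-fold. H2-M3 was also lower in HDC-KO marrow, by -1.52 (limma adjusted p = 0.0031). Fcgrt and Hfe were below background in both marrow pools. The median over the 5 was -0.02 in marrow and 2.85 in tumor.

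Of 8 other proteasome genes 7 were tested, and none was called in marrow by limma, where 2 had an unadjusted p under 0.05. In tumor Psmb10, the remaining immunoproteasome subunit, was 3.77-fold higher in the pool labelled HDC-KO (1.91 ± 0.096, limma adjusted p = 1.1e-05) and Psme3, a nuclear proteasome activator, was 2.32-fold lower. No other of the 7 was called in tumor, where 24.1% of all tested probe sets were. In marrow Psmb10 differed by -0.27 (limma adjusted p = 0.11). The constitutive subunits that the immunosubunits replace are named here for that reason and not by their size. In tumor Psmb5, the counterpart of Psmb8, differed by 0.21, Psmb6, the counterpart of Psmb9, by -0.02, and Psmb7, the counterpart of Psmb10, by -0.96, and in marrow all 3 differed by -0.11 to -0.10. Psmb8 and Psmb10 thus passed in tumor, while Psmb9, at 0.40, and the constitutive counterparts did not. Psmb7, 1.94-fold lower, fell just short of the 2-fold threshold (limma adjusted p = 0.0007).

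Of 12 genes of loading, trimming and folding 10 were tested. In tumor 6 were higher and 1 lower, with a median of 1.02, and in marrow 1 was lower. Over all tested probe sets 13.2% were higher and 10.9% lower in tumor, and 2.44% were lower in marrow. Pdia3, the ERp57 oxidoreductase of the loading complex, was 2.29-fold lower in HDC-KO marrow (limma adjusted p = 0.0014) and 5.66-fold higher in the pool labelled HDC-KO tumor (limma adjusted p = 9.7e-06). Erp29, an endoplasmic reticulum chaperone, was 2.46-fold higher in that tumor pool, Lap3, a leucine aminopeptidase, at least 3.4-fold higher, and Npepps, a cytosolic aminopeptidase, 2.42-fold lower.

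Of 21 regulators of class I transcription 18 were tested, with 1 lower in marrow and, in tumor, 5 higher and 1 lower. Over all tested probe sets 4.14% were called in marrow and 24.1% in tumor, 13.2% higher and 10.9% lower. Nlrc5, the class I transactivator, was the 1 lower in marrow. It read 7.22 and 7.32 in wild-type marrow, 5.65 and 5.41 in HDC-KO marrow, 6.03 and 6.2 in wild-type tumor, and 8.37 and 8.46 in the pool labelled HDC-KO tumor, so its pools did not overlap and HDC-KO marrow was lowest. It was 3.35-fold lower in HDC-KO marrow (-1.74 ± 0.11, limma adjusted p = 0.00018) and 4.92-fold higher in the pool labelled HDC-KO tumor (2.30 ± 0.11, limma adjusted p = 8.5e-06). Its genotype difference was larger in tumor by 4.04 ± 0.15 (limma adjusted p = 8.8e-06). Irf8, a myeloid interferon regulatory factor, was 3.68-fold higher in that tumor pool, Rfx5, a subunit of the complex that binds MHC promoters, at least 2.45-fold higher, and Nfyb, a CCAAT-binding subunit, 3.82-fold lower. The list's medians were 0.08 in marrow and 0.24 in tumor.

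Interferon-induced genes outside the class I pathway were read from a further list. Of 16 tested, 6 were lower in HDC-KO marrow and none higher, and 13 were higher in the pool labelled HDC-KO tumor and none lower, with medians of -0.61 and 1.83. Over all tested probe sets 1.7% were higher and 2.44% lower in marrow, and 13.2% higher and 10.9% lower in tumor. The same shares stand beside the marker counts below. Ifit1, an RNA sensor gene, was 5.55-fold lower in HDC-KO marrow and higher by 2.07 in tumor. Oasl2, of the oligoadenylate synthetase family, differed by -2.30 and 2.71, Ifit3 by -1.95 and 2.95, and Rsad2, the antiviral enzyme viperin, by -1.33 and 1.39. Iigp1, an immunity-related GTPase gene, at 4.22, Mx1, an antiviral GTPase gene, at 3.09, and Cxcl9, a T cell chemokine gene, at 2.78 were among the largest in tumor. In marrow, where both pools were below background for all 3, they differed by -0.20, 0.25 and -0.30 and were not called. The interaction term called 14 of the 16, all with a higher genotype difference in tumor, with a median of 2.78. Over all tested probe sets it called 15.1% higher and 12.3% lower. The same tumor pool had 12 of 14 tested monocyte, macrophage and dendritic cell markers and 13 of 14 tested epithelium markers called higher, and in marrow 2 monocyte, macrophage and dendritic cell markers were higher and 1 lower. Of 5 tested B and plasma cell markers 3 were lower in HDC-KO marrow and 1 higher. Those lower were the antibody heavy chain genes Igha, by 50.3-fold, and Ighm, by 2.11-fold, and the antibody joining chain gene Jchain, by 14.1-fold. Cd79b was the 1 higher, by 2.57-fold (limma adjusted p = 0.00095), and Ms4a1 was higher by 0.88 without a call. Of 4 tested T and NK cell markers 2 were higher in HDC-KO marrow and 1 lower. Cd3d, a T cell receptor subunit, was 28.8-fold higher, but Cd3e and Cd3g of the same list were below background in both marrow pools. Nkg7 was 2.08-fold lower (limma adjusted p = 0.016). Gzma, the other marker called higher, was below background in both marrow pools. In the pool labelled HDC-KO tumor 2 of the 5 B and plasma cell markers were higher, Cd79b by 14.2-fold and Ms4a1 by 8.34-fold. Of the 4 T and NK cell markers, Gzma was higher there by 3.5 and Cd3g by 2.5, and Cd3d was lower by -1.76. The part of these cells in the interferon-induced and pathway values was not tested.

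**Figure D5:**
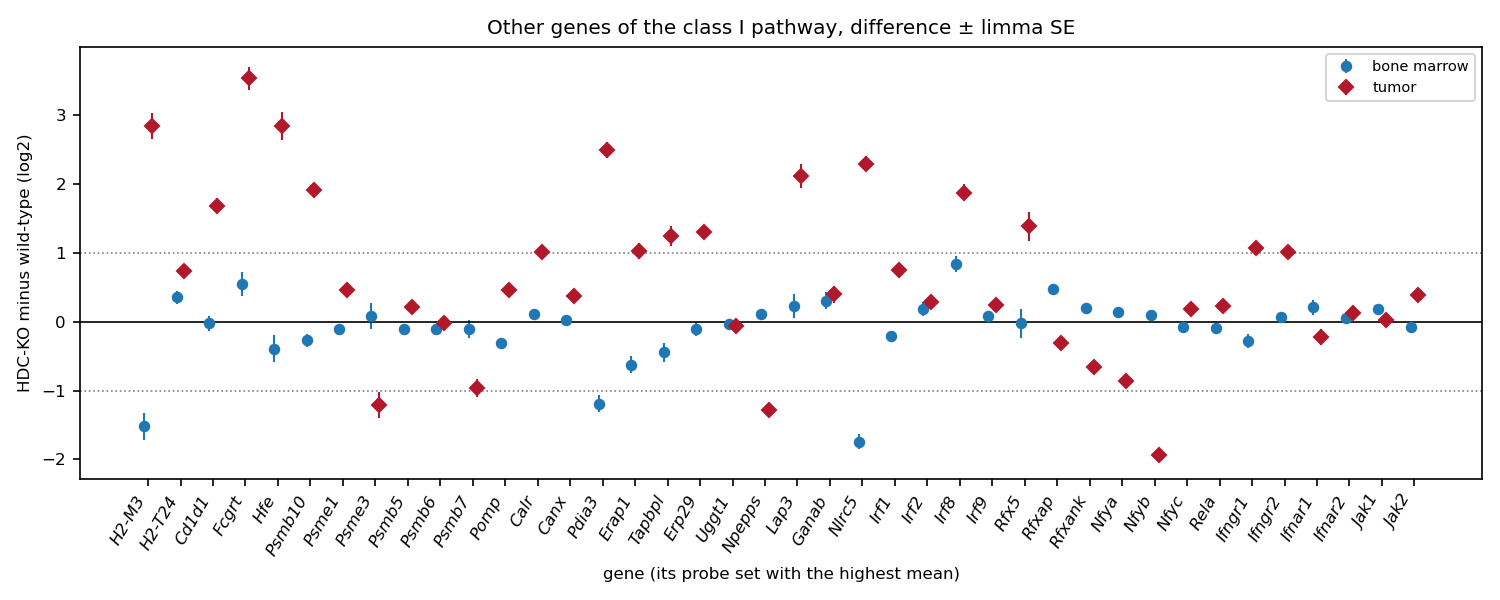
Log2 difference of HDC-KO minus wild-type (vertical) for each tested gene of the pathway lists (horizontal), with separate markers for marrow and tumor. Bars are limma standard errors, which cover the spread of technical arrays only, and dotted lines mark the 2-fold threshold. Nlrc5, H2-M3 and Pdia3 lie lower in marrow and higher in tumor past both thresholds, and most other genes lie near 0 in marrow.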

How the data were processed

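Log2 expression values for 45101 Affymetrix probe sets were deposited by the authors, who used GCRMA per the submitters' processing notes. That they are log2 was judged from their range. They came with software versions, detection calls and array build not given in the sources used here. Arrays have no depth, so their number limits the precision. Titles placed the arrays in 4 pools of 2 technical arrays.

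All tests were linear models with empirical Bayes moderation (limma 3.58.1, R 4.3.3) over 4 groups (4 residual degrees of freedom, 2.2 prior). They covered the 15686 probe sets that reached log2 5 on 2 or more arrays, without 64 array controls, and Benjamini-Hochberg adjustment ran over all of them. A call needed a log2 difference of 1 or more in size and an adjusted p below 0.05. Errors of differences are limma's standard errors. With 1 pool mean under log2 5 the fold is a lower bound, that mean being raised to 5, and with both under it there is none. The fit was tested on simulated data.

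Gene names came from the platform annotation, in which 34958 probe sets had 1 symbol, 932 had several and 9211 had none. Every member probe set is reported. From each pathway list and the interferon-induced list up to 4 called genes with the largest differences in each genotype comparison are named, beside Hdc, the constitutive proteasome subunits, and others said to be chosen by value. Of the cell type lists only some markers are named, and not by this rule. The members and lists were chosen with earlier results of these data known. Motifs were searched on both strands in RefSeq promoter windows of GRCm38.p6 (250 bases before to 50 after a start), present for 9 of 10 members and not for Tap2. Python 3.11.15, numpy 2.4.6 and pandas 2.3.3 were used. Alternatives in filter, normalization, probe set type, variance model and arrays left out were run.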

Additional observations from a re-analysis of the deposited data

Results flagged for a closer look

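The genotype difference (HDC-KO minus wild-type) of 13 member probe sets differed between tumor and marrow by limma's interaction term. On the log2 scale it was lower in tumor by -6.67, -7.59 and -7.46 on the H2-D1 probe sets 1427651_x_at, 1425614_x_at and 1452544_x_at, which were below background in wild-type marrow. It was higher in tumor by 1.45 and 1.26 on the H2-D1 probe sets 1426324_at and 1450170_x_at. For H2-K1 the values were 2.02 on 1425336_x_at, 2.13 on 1427746_x_at and 1.97 on 1450534_x_at. Tap1 gave 2.35, Tap2 1.11, Tapbp 1.01, and the 2 Psmb8 probe sets 1.42 and 1.33. The 1.33 is of 1444619_x_at, with 3 of 4 pools below log2 5, and fell to 0.48, without a call, when values were raised to log2 5. Tap2 fell to 0.96 under quantile normalization.

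Outside the members, 2 probe sets annotated to several genes were called in tumor. The one shared by H2-K1 and H2-D1 was higher by 1.10 in the pool labelled HDC-KO than in wild-type tumor (limma adjusted p = 1.8e-05). The one shared by H2-Q5 and H2-K1 was higher by 2.48 (limma adjusted p = 8.7e-06), from 4.95 and 4.75 to 7.28 and 7.37.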

How the results depend on the processing

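The number of member probe sets called was 6 in marrow by genotype, 5 in tumor by genotype, 5 between tissues in wild-type cells, 10 between tissues in the cells labelled HDC-KO, and 13 for the difference of genotype differences. With 1 probe set per gene these became 1, 3, 2, 3 and 4, and without probe sets of the _x_at or _s_at kind 1, 3, 2, 3 and 5. By limma adjusted p alone, chosen after seeing the data, they became 20, 21, 18, 21 and 21, and among probe sets at or above log2 5 in all pools, also chosen so, 3, 3, 1, 4 and 8. With values raised to log2 5 the tumor count became 3. Leaving out each array in turn gave 5 to 6, 5 to 7, 5 to 5, 9 to 10 and 11 to 13. The replicate block left the counts at 6, 5, 5, 10 and 13; same-numbered arrays correlated at -0.0169 to 0.0672 in their deviations, so the numbers do not pair the samples. With values raised to log2 5 the H2-Q10 difference of genotype differences turned from -0.58 to 0.9. Of 1829 values for single probe sets under alternatives, 1811 kept direction and side of the threshold, 14 lost a call, 3 gained one and 1 reversed. H2-K1 1427746_x_at lost its marrow call without the first wild-type marrow array (-0.96), H2-K1 1425336_x_at without the first HDC-KO marrow array (-0.98), Tap1 its tumor call without the second array of the pool labelled HDC-KO tumor (0.97), and Tapbp its interaction call in each of 4 such fits (0.96 to 1.00). Tap2 lost its interaction call under quantile normalization (0.96), and Psmb8 1444619_x_at its interaction call with values raised to log2 5 (0.48). That Psmb8 probe set also lost its call between tissues in the cells labelled HDC-KO. It stood at 0.48 with values raised to log2 5 and at 0.87 under quantile normalization. Dim probe sets of H2-K1 and Psmb8 are limited by signal near background.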
